A study of Mus musculus with 8 samples.

Results

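Receptor tyrosine kinases are membrane proteins that bind a growth factor outside the cell and phosphorylate tyrosines inside it. The phosphorylated tyrosines recruit adaptors that pass the signal to the RAS and MAP kinase cascade and to phosphoinositide 3-kinase, and ubiquitin ligases and phosphatases later end it. Melanocytes and melanomas are known to use several of these receptors, among them MET, ERBB3 and the insulin-like growth factor receptor, and plexin D1, the receptor of the guidance protein SEMA3E, has been tied to ERBB2 in other tumour cells. The 10 genes described here are Egfr, Erbb3, Erbb4, Met, Igf1r, Insr, Fgfr1, Pdgfra, Pdgfrb and Mertk. They were taken by name from the gene name column of the scanner files, with every probe that carries one of these names. This gave 17 probes on 18 spots, out of 55698 probes on 61537 spots with 34834 gene names.

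The series measured RNA in B16 cells, an established mouse melanoma line, and its title asks which transcripts the pair of SEMA3E and plexin D1 changes in them. The 8 samples formed 4 groups of 2, which the labels call biological replicates. The groups were untreated control cells labelled 0 h, cells treated with SEMA3E for 2 h, cells treated with SEMA3E for 8 h, and cells treated for 8 h with cytochalasin D, a drug that stops actin filaments from growing. All groups were kept in high-glucose medium with 5% fetal bovine serum, which itself carries growth factors. The labels give no vehicle control and no untreated cells at 2 h or 8 h, so treatment and time in culture cannot be told apart in comparisons with control, whereas the SEMA3E and cytochalasin D groups at 8 h share their time. B16 is 1 line, so the replicates carry no variation between tumours. Each RNA sample was labelled with Cy3 and read in 1 colour on 1 array.

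All 8 arrays lay on 1 slide with 1 scan date and each group in neighbouring positions, so position and group cannot be told apart. The scanner software marks a spot as well above background, and this mark stood on 37.6% to 47.8% of an array's spots. No array had a saturated spot (0 of 62976 on each). Signals were not on a common scale: the processed signal had a 75th percentile of 59.3 and 61.1 for SEMA3E at 2 h, and of 66.8 to 154 on the other 6 arrays. Replicate 2 of SEMA3E at 8 h had a higher background, with a median negative control signal of 4.38 against 1.58 to 2.17 on the other 7 arrays, and a probe there needed a signal of 19.0 to be marked, against 6.62 to 9.22 elsewhere. All 7 melanocyte markers listed (Mitf, Sox10, Dct, Tyr, Tyrp1, Pmel and Mlana) were above background on all 8 arrays. So were Col1a1 and Col1a2 of 6 fibroblast markers, Cd68, Csf1r and Itgam of 6 macrophage markers and Pecam1 and Vwf of 5 endothelial markers, but 0 of 5 epithelial markers. Col3a1, Lum, Thy1, Cd14, Cdh5, Tek, Emcn, Cdh1, Krt8 and Krt18 were above background on no array. The melanocyte markers had a summed linear level of 90.9 to 96.0 in control, 112 to 137 after 2 h of SEMA3E, 92.0 to 99.3 after 8 h and 99.99 to 107 after cytochalasin D. The summed linear levels of the fibroblast and of the endothelial list overlapped between control and every treated group. The epithelial sum was 0.0110 to 0.0126 in control, 0.0236 to 0.0359 after 2 h of SEMA3E and 0.0135 to 0.0407 after 8 h, and the macrophage sum was 0.147 to 0.163 in control, 0.205 to 0.223 after 2 h of SEMA3E and 0.193 to 0.218 after 8 h. The epithelial sum includes signals near background, since 3 of its 5 markers were above background on no array. All sums are on scaled values. The scaling signals were 1196 and 1167 after 2 h of SEMA3E, against 2768 and 2303 in control. How much of a difference between sums comes from that scaling was not tested. The part of such differences in the results below was not tested. In such bulk samples fewer cells that express a gene and less RNA per cell cannot be told apart.

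Which receptors could be read at all depended on single oligonucleotides of 60 bases, and 4 of them are shown because the findings turn on them. The Met probe was bright on every array, the Erbb3 probe hovered at the background mark, and the Egfr probe was the brightest of 3 and was marked on few arrays. The third Fgfr1 probe lay higher after 8 h than after 2 h of SEMA3E without overlap, which the other 2 probes of its gene did not. They are printed 5′ to 3′ as in the scanner files.
Met: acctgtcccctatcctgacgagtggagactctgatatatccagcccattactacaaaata
Erbb3: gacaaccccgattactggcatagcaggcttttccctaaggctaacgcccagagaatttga
Egfr, brightest probe: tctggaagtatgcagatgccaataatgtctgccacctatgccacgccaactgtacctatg
Fgfr1, dimmest probe: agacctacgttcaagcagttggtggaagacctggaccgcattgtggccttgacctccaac
Their GC contents were 45%, 50%, 48.3% and 55%, against a median of 43.3% over all probes. The files name build mm9 but list all probes as unmapped, so no positions are given. A probe's signal also depends on its sequence, so levels are compared between arrays for 1 probe and never between probes.

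B16 cells showed clear signal for 4 of the 10 receptors. Met, Igf1r, Insr and Fgfr1 each had at least 1 probe well above background on all 8 arrays, while Erbb4 and Pdgfra had none above background on any array. The other 4 lay in between: the best probe was marked on 4 arrays for Erbb3, 4 for Pdgfrb, 2 for Egfr and 1 for Mertk. By probe, 6 of 17 (35.3%) were marked on all 8 arrays and 5 (29.4%) on none, compared with 33.6% and 42.2% of all probes. By gene, the share marked on all 8 arrays was 4 of 10, compared with 49.3% of all genes with a current symbol. The number of receptor probes marked on an array was 7 to 10, with no group apart from the rest: 8 and 10 in control, 7 and 7 after 2 h of SEMA3E, 10 and 7 after 8 h of SEMA3E, and 9 and 8 after cytochalasin D.

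**Figure D1:**
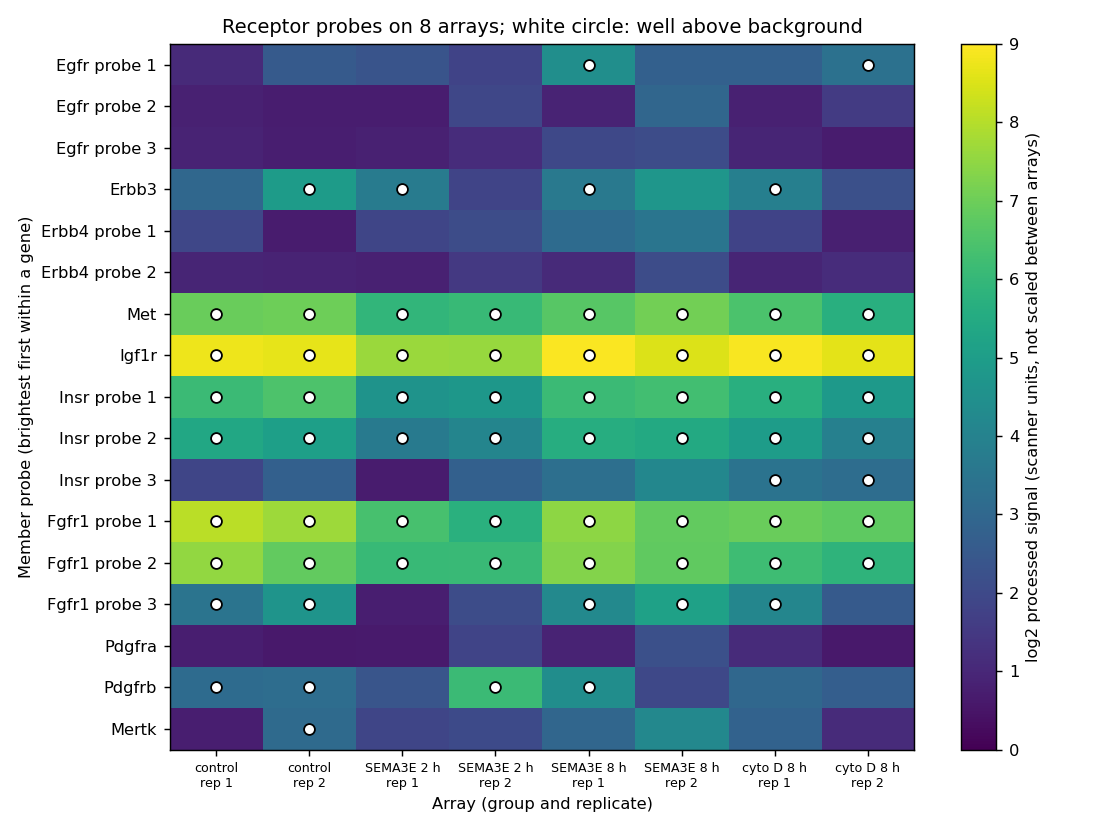
Processed signal of the 17 receptor probes on the 8 arrays, as log2 of scanner units before any scaling between arrays (colour), with a white circle where the software marked the probe as well above background. The 6 probes with circles in every column belong to Met, Igf1r, Insr and Fgfr1, and those of Erbb4 and Pdgfra have none.

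The relatives and ligands of these receptors were read the same way, from lists chosen with earlier results of these data known. Of 28 ligand genes, 8 were above background on all 8 arrays: Egf and Hbegf (ligands of EGFR), Igf1, Fgf1, Fgf18, Pdgfa, Pdgfb and Pros1 (protein S, a ligand of MERTK). Another 13 were above background on no array, among them the neuregulins Nrg1, Nrg3 and Nrg4, which bind ERBB3 and ERBB4, and Igf2, Pdgfc and Pdgfd. Hgf, the ligand of MET, was marked on 1 array. The Pdgfa and Pdgfb transcripts were thus read on every array while Pdgfra was read on none and Pdgfrb on 4. Of 42 other receptor tyrosine kinases, 21 were above background on all 8 arrays. They included Erbb2, the partner of ERBB3 that binds no ligand of its own, Fgfr3, Mst1r (the MET relative also called RON) and both relatives of Mertk, Axl and Tyro3. Insrr, Ret and Flt1 were among the 9 on no array. Downstream, 36 of 41 adaptor and relay genes were above background on all 8 arrays and 0 on none, and of 22 genes listed as attenuators 16 were on all and 3 (Cblc, Grb10 and Ptprf) on none. A dim probe can also reflect a poor probe, so these marks do not show that a transcript was absent.

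For the tests, levels were set on a log2 scale on which 0 is the 75th percentile, on each array, of the probes so marked on every array, and a difference of 1 is 2-fold. A probe was tested if it was well above background on both arrays of at least 1 group, which held for 24667 probes. Among them were 9 receptor probes of 5 genes: 1 each of Met, Igf1r and Pdgfrb and 3 each of Insr and Fgfr1. The remaining 8 probes were too dim, including all of Egfr, Erbb3, Erbb4, Pdgfra and Mertk. With limma and Benjamini-Hochberg adjustment over all 24667 probes, 0 of the 9 receptor probes passed an adjusted p under 0.05 in any of 5 comparisons, and the lowest of their 45 adjusted p-values was 0.393. At an unadjusted p under 0.05 there were 2 of these 45. The share of all tested probes that passed was 0% for SEMA3E at 2 h against control, 0.00405% (1 probe, of Catsperg2) for SEMA3E at 8 h against control, 0% for cytochalasin D against control, 0% for cytochalasin D against SEMA3E at 8 h and 0% for SEMA3E at 8 h against 2 h. With each gene's brightest probe alone the share at 8 h of SEMA3E against control was 0.00555%. At an unadjusted p under 0.05 the counts over all probes were 2268, 1594, 630, 2772 and 2977 in that order. The median standard error of a difference over all tested probes was 0.36, so with 2 arrays a group only large differences could have passed. The 3 comparisons with control share the same 2 control arrays.

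The ErbB receptors came first in the order of roles. Erbb3, which binds neuregulins and signals mainly through phosphoinositide 3-kinase, had processed signals of 7.94 and 30.9 in control, 13.3 and 3.60 after 2 h of SEMA3E, 12.4 and 26.2 after 8 h of SEMA3E, and 14.7 and 4.61 after cytochalasin D. Exactly 1 array of each group was marked as above background, and the replicates of each group differed more than the groups did. On replicate 2 of SEMA3E at 8 h the signal of 26.2 was not marked although it passed the lowest marked signal of 19.0 there. On the log2 scale the means ± SD (n = 2 arrays throughout) were -7.33 ± 1.57 in control, -7.41 ± 1.31, -7.10 ± 0.95 and -7.69 ± 0.80 in the order above, and all neighbouring groups in the order of levels overlapped.

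Egfr, the receptor of EGF, HB-EGF and related ligands, was dim on all 3 of its probes. Its brightest probe gave 2.09 and 5.90 in control, 5.01 and 3.49 after 2 h of SEMA3E, 22.1 and 6.85 after 8 h of SEMA3E, and 6.83 and 10.2 after cytochalasin D. Only replicate 1 of SEMA3E at 8 h and replicate 2 of cytochalasin D were marked as above background. The other 2 Egfr probes, which lay between 1.61 and 7.80 on all arrays, were marked nowhere. They read 1.87 and 3.88 on replicate 1 of SEMA3E at 8 h, above 11.7% and 98.7% of that array's negative controls, and 2.96 and 1.61 on replicate 2 of cytochalasin D, above 99.0% and 59.1%. Erbb4, another neuregulin receptor, gave 1.60 to 11.4 over both probes and all arrays, with its highest signals of 8.90 and 11.4 on the SEMA3E 8 h arrays, both unmarked.

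Of the 8 untested receptor probes, 6 were marked on no array of control or of SEMA3E at 2 h (3 of Egfr, 2 of Erbb4 and that of Pdgfra). On the log2 scale all 6 lay higher on both SEMA3E 2 h arrays than on both control arrays, as did 79.7% of the 28203 untested probes with no mark in these groups, so nothing about these receptors follows from it. Brightest Egfr probe means were -9.49 ± 1.25 in control and -8.14 ± 0.34 after 2 h of SEMA3E. The unscaled signals overlapped for that probe, and the signals by which the arrays were scaled, the 75th percentiles of the probes marked on every array, were 2768 and 2303 for control against 1196 and 1167 after 2 h of SEMA3E. The part of that scaling in these values was not tested, and no test of them is given.

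**Figure D2:**
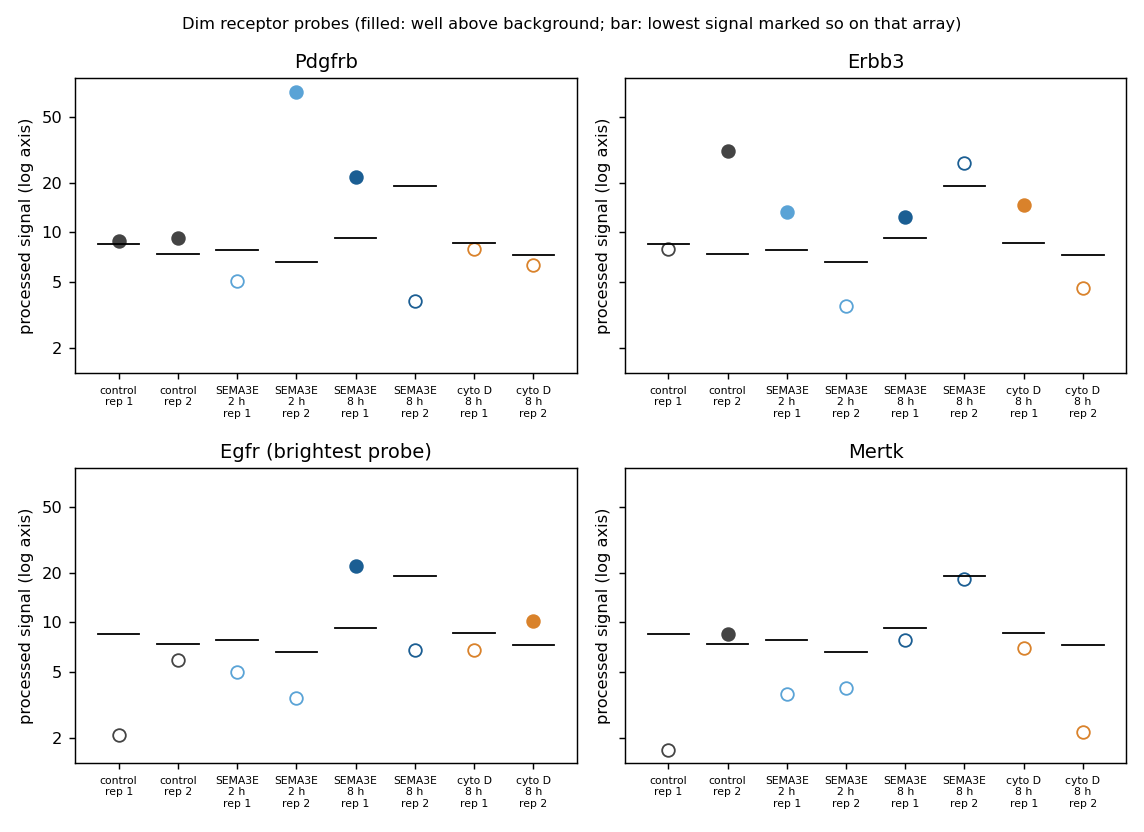
Processed signal (log axis, scanner units) of Pdgfrb, Erbb3, Mertk and the brightest Egfr probe on each of the 8 arrays. Points are filled where the probe was marked well above background and bars show the lowest signal so marked on that array, which was 19.0 on replicate 2 of SEMA3E at 8 h, while 1 Pdgfrb value of 70.6 stands above all others.

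Met, the receptor of hepatocyte growth factor and a regulator of melanocyte growth and motility, was read on every array. Its signals were 123 and 128 in control, 60.3 and 66.2 after 2 h of SEMA3E, 100.5 and 137 after 8 h of SEMA3E, and 88.1 and 50.6 after cytochalasin D. The low raw signals after 2 h went with the low 75th percentile of those arrays, and after scaling that group was not low. The levels were -4.49 and -4.17 in control, -4.31 and -4.14 after 2 h of SEMA3E, -4.76 and -4.04 after 8 h, and -4.54 and -4.80 after cytochalasin D. Both SEMA3E groups overlapped control, and both cytochalasin D arrays lay below both controls.

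None of these Met differences passed. The difference from control was 0.11 ± 0.33 (SE) at 2 h of SEMA3E, with a 95% interval of -0.66 to 0.87, and -0.07 ± 0.33 at 8 h, with an interval of -0.84 to 0.70. Changes in Met of about 2-fold were therefore outside these intervals, on this scale, in either direction. After cytochalasin D it was -0.34 ± 0.33, with an interval of -1.11 to 0.43. Cytochalasin D against SEMA3E at 8 h gave -0.27 ± 0.33 and SEMA3E at 8 h against 2 h gave -0.18 ± 0.33. The 2 genes whose centred levels over the 8 arrays lay closest to those of Met were Gen1 and Nmnat1, with root mean square differences of 0.0940 and 0.103 log2 units, against a median of 0.409 over 11020 genes. Here and for the receptors below, such genes lie under the median because they were picked as the closest. No link between them and the receptor was tested.

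Igf1r, the receptor of insulin-like growth factors, lay highest after cytochalasin D, although the difference did not pass the adjusted threshold. Its levels were -2.65 and -2.52 in control, -2.58 and -2.59 after 2 h of SEMA3E, and -2.46 and -2.60 after 8 h of SEMA3E, but -2.10 and -1.81 after cytochalasin D. Both cytochalasin D arrays thus lay above the other 6, a pattern that 4.22% of all tested probes shared. Against control the difference was 0.63 ± 0.26, or 1.54-fold, with a 95% interval of 0.02 to 1.23, an unadjusted p of 0.0441 and an adjusted p of 0.9999 by limma. Against SEMA3E at the same 8 h it was 0.57 ± 0.26 (adjusted p = 0.454, interval -0.03 to 1.18).

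In both SEMA3E groups Igf1r lay close to control. The difference was 0.00 ± 0.26 at 2 h, with an interval of -0.60 to 0.61, and 0.05 ± 0.26 at 8 h, with an interval of -0.55 to 0.66. Raw signals were 441 and 402 in control, 200.4 and 194 at 2 h of SEMA3E, 495 and 371 at 8 h and 477 and 401 after cytochalasin D. The raw cytochalasin D signals were thus within the range of the other arrays, and the difference appeared on scaling, by signals of 2048 and 1410 after cytochalasin D against 2768 and 2303 in control. Over 16 alternatives in scaling, background correction, filter and arrays left out, the difference of cytochalasin D from control stayed above 0, from 0.45 to 0.77, with a lowest adjusted p of 0.486. Those alternatives that altered only the filter, the probe set, the replicate block or the intensity trend could not change that difference. The gene's 1 probe allows no second reading. The genes closest to Igf1r over the 8 arrays were Ckap4 and Flna, the latter encoding the actin crosslinker filamin A, with root mean square differences of 0.0863 and 0.0903 against a median of 0.420 over 11020 genes.

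**Figure D3:**
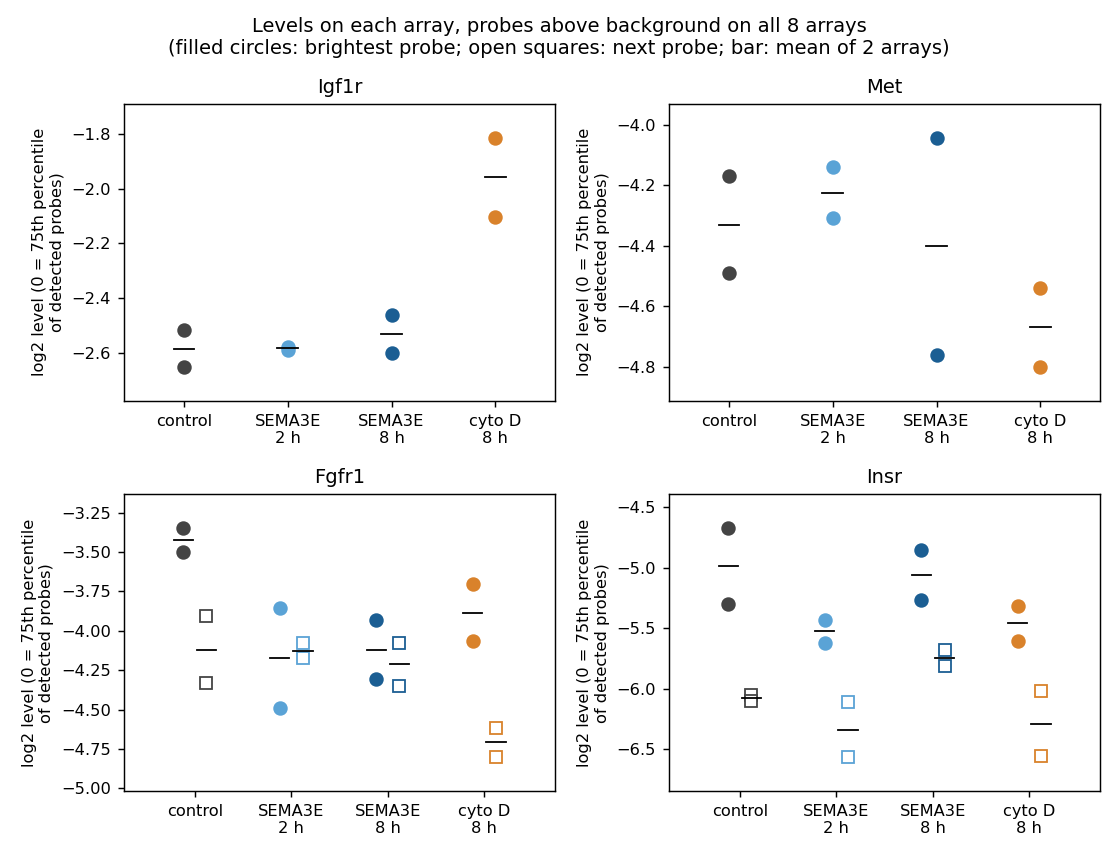
Level on each array, in log2 units relative to the 75th percentile of detected probes, of the 6 receptor probes that were above background on all 8 arrays, with bars at the mean of the 2 arrays of a group. The 2 cytochalasin D arrays of Igf1r, at -2.10 and -1.81, lie above the other 6, and the 2 Fgfr1 probes (filled circles and open squares) differ in which groups lie below control.

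Insr, the insulin receptor, had 2 probes above background on all arrays and a dim one. The brightest gave -5.30 and -4.68 in control, -5.62 and -5.44 after 2 h of SEMA3E, -5.27 and -4.86 after 8 h and -5.32 and -5.60 after cytochalasin D. The second gave -6.05 and -6.10 in control, -6.56 and -6.11 after 2 h, -5.81 and -5.68 after 8 h and -6.02 and -6.56 after cytochalasin D. On both probes the 2 h SEMA3E arrays lay below both controls and below both 8 h SEMA3E arrays. On the second probe the nearest values of 2 h and control were -6.11 and -6.10. The differences at 2 h were -0.54 ± 0.32 and -0.26 ± 0.31, and those of 8 h against 2 h were 0.46 ± 0.32 and 0.59 ± 0.31 (adjusted p = 0.533 and 0.446). With normexp, a background model in place of the software's subtraction, both probes changed sign. They then gave 0.27 and 0.65 at 2 h, and -0.41 and -0.48 for 8 h against 2 h. The median over all tested probes moved as well, to 0.44 at 2 h and -0.35 for 8 h against 2 h. Relative to that median the 2 probes gave -0.17 and 0.21 at 2 h, and -0.06 and -0.12 for 8 h against 2 h. Cytochalasin D lay below SEMA3E at 8 h on both probes, by -0.40 ± 0.32 and -0.54 ± 0.31 (adjusted p = 0.636 and 0.514). Against control, cytochalasin D gave -0.47 ± 0.32 and -0.21 ± 0.31 and SEMA3E at 8 h gave -0.07 ± 0.32 and 0.33 ± 0.31.

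The third Insr probe went another way. Its signals were 3.65 and 6.79 in control, 1.60 and 6.84 after 2 h of SEMA3E, 9.74 and 18.0 after 8 h and 10.7 and 9.41 after cytochalasin D, and the cytochalasin D arrays alone were marked as above background. Cytochalasin D was at least 1.87-fold above control when each dim array was set to its lowest marked signal, while the fitted difference was 1.58 ± 0.75 (adjusted p = 0.9999). That bound takes no account of how far the replicates differ. The probe also entered the tests only through the marks of the cytochalasin D arrays, the group that lay higher. Its values there are therefore a description and no support for a change, and the unmarked SEMA3E 8 h signals were of similar size. The 3 probes of Insr thus did not share a direction after cytochalasin D. The genes closest to the brightest Insr probe were Trak2 and Exd2, with root mean square differences of 0.121 and 0.131 against a median of 0.444 over 11020 genes.

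Fgfr1, a receptor of fibroblast growth factors, was lower than control in every treated array on its brightest probe and not on the next. The brightest probe gave -3.35 and -3.50 in control, -3.85 and -4.49 after 2 h of SEMA3E, -3.93 and -4.31 after 8 h of SEMA3E and -4.06 and -3.70 after cytochalasin D. All 6 treated arrays lay below both controls, as they did for 1.39% of all tested probes. The differences were -0.75 ± 0.33 (unadjusted p = 0.0538, adjusted p = 0.529), -0.69 ± 0.33 (adjusted p = 0.800) and -0.46 ± 0.33 (adjusted p = 0.9999) for the 2 h and 8 h SEMA3E groups and cytochalasin D, all by limma.

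The second Fgfr1 probe gave -3.91 and -4.33 in control, -4.17 and -4.08 after 2 h of SEMA3E, -4.07 and -4.35 after 8 h and -4.80 and -4.61 after cytochalasin D. Here 3 of 6 treated arrays lay below both controls. SEMA3E differed from control by -0.01 ± 0.28 at 2 h and -0.09 ± 0.28 at 8 h, with intervals of -0.66 to 0.65 and -0.75 to 0.57. Both cytochalasin D arrays lay below the other 6, as for 6.2% of all tested probes, with a difference from control of -0.59 ± 0.28 (adjusted p = 0.9999). The 2 bright Fgfr1 probes therefore placed the cytochalasin D arrays on the same side of control, and SEMA3E apart from control on 1 probe only.

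The third Fgfr1 probe, printed above, was dim and gave the lowest adjusted p of all receptor probes. Its signals were 11.1 and 25.2 in control, 1.71 and 4.26 after 2 h of SEMA3E, 19.0 and 35.5 after 8 h of SEMA3E and 17.5 and 5.85 after cytochalasin D. Both 2 h arrays were unmarked, as was replicate 2 of cytochalasin D, and the other 5 arrays were marked. SEMA3E at 8 h was at least 1.72-fold above 2 h (fitted difference 2.20 ± 0.71, unadjusted p = 0.0160, adjusted p = 0.393, by limma). Control was at least 1.08-fold above 2 h (fitted difference of 2 h from control -1.54 ± 0.71, adjusted p = 0.529). On the same contrast of 8 h against 2 h the brighter probes gave 0.05 ± 0.33 and -0.09 ± 0.28. The 2 bounds take no account of how far the replicates differ, and they hold for the software's background subtraction only. The probe was tested through the marks of control and of SEMA3E at 8 h, the groups that lay higher in these 2 contrasts. The bounds are therefore a description only. With normexp the third probe changed sign on both contrasts, to -0.43 for 8 h against 2 h and 0.70 for 2 h against control. The median over all tested probes was then -0.35 and 0.44, and relative to it the probe gave -0.08 and 0.26. The genes closest to the brightest Fgfr1 probe were Chmp7 and Zzz3, with root mean square differences of 0.146 and 0.161 against a median of 0.510 over 11020 genes.

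The PDGF receptors, which are known from fibroblasts and pericytes, were dim. Pdgfra gave signals of 1.52 to 4.57 and was marked on no array. Pdgfrb gave 8.90 and 9.32 in control, 5.12 and 70.6 after 2 h of SEMA3E, 21.5 and 3.87 after 8 h and 7.97 and 6.405 after cytochalasin D. The 2 controls, replicate 2 of SEMA3E at 2 h and replicate 1 of SEMA3E at 8 h were marked, and the value of 70.6 stood far above the other 7. On that array the spot had a pixel mean of 72.6 but a pixel median of 47 and a pixel SD of 73.1 over 35 pixels. Its ratio of SD to mean, 1.01, was higher than that of 99.7% of the spots there, and the software gave the signal an error of 22.7 without marking the spot as an outlier. The fitted difference of SEMA3E at 2 h from control was 2.16 ± 1.18 (adjusted p = 0.562), and 0.25 without that array. At 8 h of SEMA3E it was 0.03 ± 1.18 and after cytochalasin D 0.22 ± 1.18. Of the 6 fibroblast markers, Col1a1 and Col1a2 were above background on all 8 arrays and Col3a1, Lum and Thy1 on none.

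Mertk, a receptor of GAS6 and protein S that takes part in the uptake of dying cells, gave 1.71 and 8.55 in control, 3.72 and 4.04 after 2 h of SEMA3E, 7.83 and 18.4 after 8 h and 7.04 and 2.17 after cytochalasin D. Replicate 2 of control alone was marked as above background. The value of 18.4 lay on the array with the high background, where 19.0 was the lowest marked signal, and all groups overlapped with their neighbours in the order of levels. Its relatives were above background on all 8 arrays: Tyro3 lay at -0.14 ± 0.11 in control, -0.39 ± 0.18 and -0.19 ± 0.12 after 2 h and 8 h of SEMA3E and -0.14 ± 0.14 after cytochalasin D. Axl lay at -3.89 ± 0.77, -3.90 ± 0.34, -3.25 ± 0.14 and -3.43 ± 0.04 in the same order. The ligand gene Pros1 lay at -1.78 ± 0.18, -1.65 ± 0.17, -1.73 ± 0.22 and -2.003 ± 0.23.

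The counts of groups that did not overlap, over the 9 tested receptor probes, are given beside the same shares of all tested probes. For SEMA3E at 2 h, 1 probe lay higher on both arrays than both controls and 4 lay lower, where 23.5% and 16.3% of all tested probes did. For SEMA3E at 8 h it was 2 and 1, against 25.9% and 11.3%. For cytochalasin D it was 2 and 4, against 14.2% and 13.9%, and for cytochalasin D against SEMA3E at 8 h it was 1 and 3, against 17.5% and 34.9%. For SEMA3E at 8 h against 2 h it was 3 and 0, against 30.5% and 20.9%. The third Insr probe, counted as higher after cytochalasin D, was tested only through that group's marks. With 9 probes of 5 genes, several of which share a gene, these counts are a description only.

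**Figure D4:**
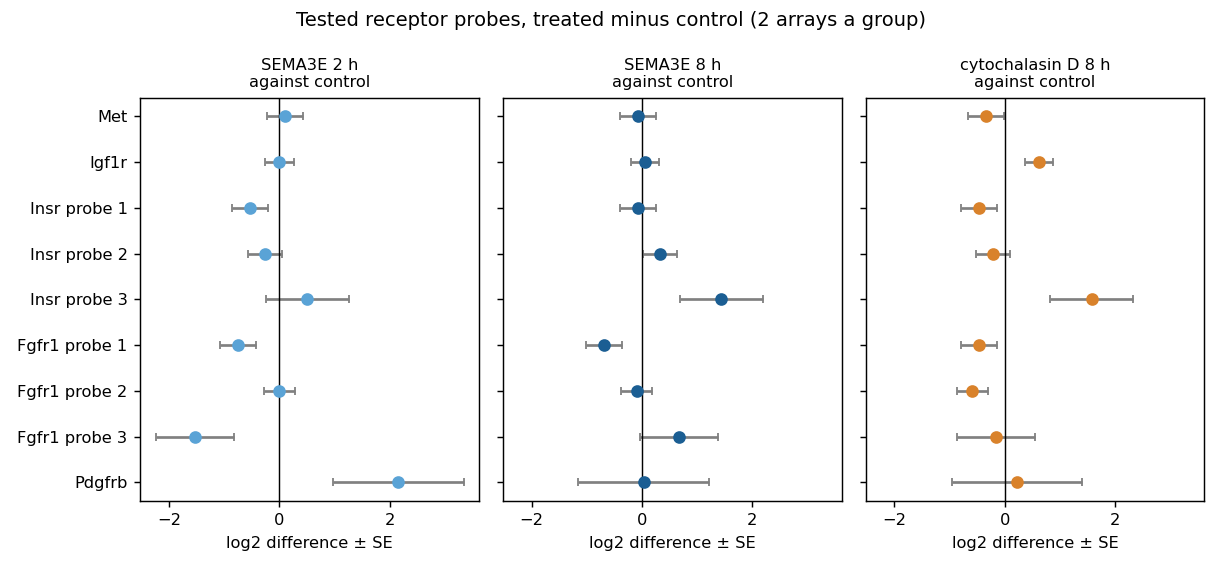
Log2 differences from control, with their standard errors, of the 9 tested receptor probes after SEMA3E (2 h and 8 h) and cytochalasin D (2 arrays a group). 0 of these differences passed an adjusted p under 0.05, and probes of the same gene disagree for Insr and Fgfr1.

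The genes around the receptors were counted with the brightest tested probe of each, and 0 of them passed in any comparison. Beside the percentages already given by probe, 24.5% of the 18023 genes tested lay higher and 15.1% lower in SEMA3E at 2 h without overlap with control, 25.1% and 12.3% in SEMA3E at 8 h, and 15.9% and 13% in cytochalasin D. Between cytochalasin D and SEMA3E at 8 h the shares were 19.6% and 32.8%, and between 8 h and 2 h of SEMA3E 27.9% and 22.6%. The 3 comparisons with control had medians over all genes of 0.06, 0.12 and 0.03. Of the 11 ligand genes tested, 0 lay apart from control at 2 h, 3 lay higher and 1 lower at 8 h of SEMA3E, and 1 lay higher and 1 lower after cytochalasin D, with medians of 0.10, 0.05 and 0.01. Fgf1, a ligand of FGFR1, had the widest of these differences after cytochalasin D, at 0.52 ± 0.26 (adjusted p = 0.9999). Nrg2, a neuregulin, differed by -1.08 ± 0.55 at 8 h of SEMA3E (adjusted p = 0.810).

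Of the 25 other receptor genes tested, 2 lay higher and 2 lower at 2 h of SEMA3E, 8 higher and 1 lower at 8 h, and 4 higher and 3 lower after cytochalasin D, with medians of 0.06, 0.25 and 0.20. Ntrk2, the BDNF receptor, differed by 0.87 ± 0.39 at 2 h (adjusted p = 0.529). Ephb4, an ephrin receptor, differed by 1.24 ± 0.47 after cytochalasin D (adjusted p = 0.9999), and its second probe by 0.47. Fgfr3, the relative of Fgfr1 above background on all arrays, differed by -1.08 ± 0.37 between cytochalasin D and SEMA3E at 8 h (adjusted p = 0.418), and its second probe by -0.92.

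Of the 40 adaptor and relay genes tested, 5 lay higher and 5 lower at 2 h of SEMA3E, 7 and 5 at 8 h, and 5 and 7 after cytochalasin D, with medians of -0.11, 0.01 and 0.00. The widest differences included Stat3, a transcription factor that receptors activate, at 1.52 ± 0.44 at 2 h of SEMA3E (adjusted p = 0.518) and -1.21 ± 0.44 after cytochalasin D (adjusted p = 0.9999). Its second probe gave 0.16 and -0.37, and for SEMA3E at 8 h against 2 h the 2 probes went opposite ways, at -1.71 and 2.15. Src differed more widely, by 2.04 ± 1.12 at 8 h of SEMA3E (adjusted p = 0.826 by limma), with 1 of 2 control arrays marked. Sos1, the exchange factor that loads RAS with GTP, differed by -1.10 ± 0.34 after cytochalasin D (adjusted p = 0.9999), where 0 of 2 arrays were marked, against 2 of 2 in control.

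Of the 17 genes tested from the list of attenuators, 6 lay higher and 2 lower at 2 h of SEMA3E, 2 and 2 at 8 h, and 1 and 1 after cytochalasin D, with medians of 0.13, 0.17 and 0.01. Grb7, an adaptor that binds ErbB receptors and was listed with its relatives Grb10 and Grb14, differed by 1.49 ± 0.32 at 2 h (unadjusted p = 0.0021, adjusted p = 0.470, by limma) and 0.82 ± 0.32 at 8 h (adjusted p = 0.759). Lrig3, of a family whose member LRIG1 lowers ErbB receptors, differed by 0.91 ± 0.40 at 2 h of SEMA3E (adjusted p = 0.529) and Stam, which sorts receptors in endosomes, by -1.35 ± 0.69 (adjusted p = 0.550). Irs1 and Irs2, the docking proteins of the insulin receptor family, were above background on all 8 arrays, with control levels of -1.73 ± 0.22 and -2.02 ± 0.37.

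Processing moved several of the receptor differences across 0. Alternatives in the filter, the probe set, the replicate block or the intensity trend cannot change a difference or its sign. For Igf1r the difference of cytochalasin D from control and from SEMA3E at 8 h kept its sign under all 16 alternatives, as did that of Fgfr1 (brightest probe, or the deposited table's value for the gene name) between SEMA3E at 8 h and control, which ran from -1.85 to -0.04. Fgfr1 between cytochalasin D and SEMA3E at 8 h (0.05 to 1.22) and Insr between cytochalasin D and control (-0.86 to -0.07) did so too. Pdgfrb kept its sign under its 15 alternatives at 2 h of SEMA3E and after cytochalasin D, each against control, and between 8 h and 2 h of SEMA3E. The difference of the brightest Fgfr1 probe at 2 h was below 0 under 15 alternatives. The authors' deposited value table gave 0.70 for Fgfr1, but it holds 1 value per gene name, how it combined the 3 probes is not stated, and it is not a value of that probe. When a background model (normexp) replaced the software's subtraction, Pdgfrb and the third Insr probe passed at 2 h of SEMA3E, with 1.28 and 1.06 (adjusted p = 0.0440 for both), and so did 24.5% of all probes tested.

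**Figure D5:**
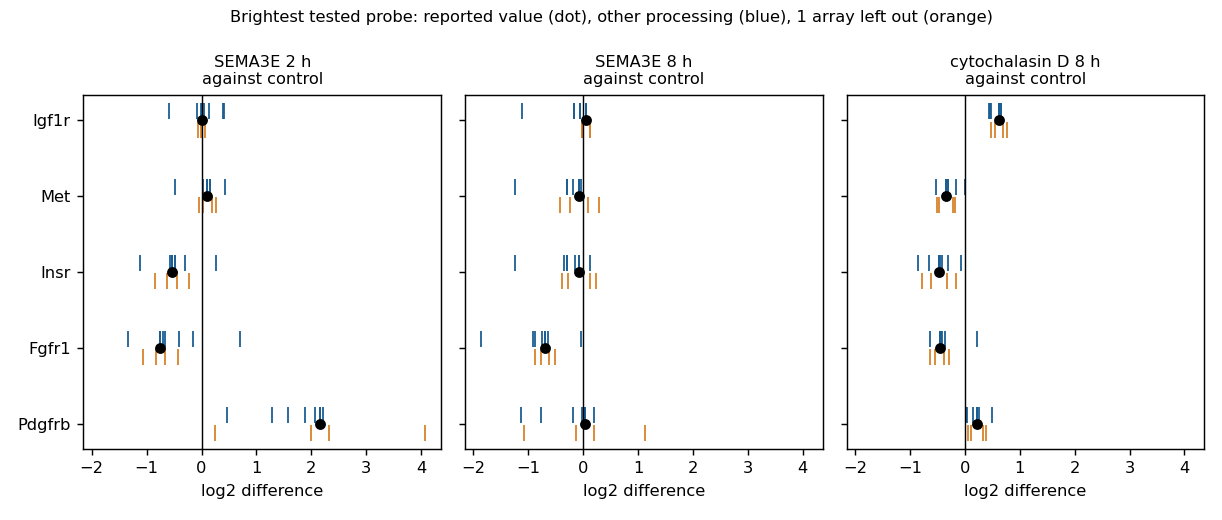
Log2 difference from control of the brightest tested probe of Igf1r, Met, Insr, Fgfr1 and Pdgfrb: the reported value (black dot), values under other processing (blue ticks) and values with 1 array left out (orange ticks). For Igf1r after cytochalasin D all values lie between 0.45 and 0.77, while those of Pdgfrb at 2 h of SEMA3E run from 0.25 to 4.07.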

How the data were processed

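RNA of 8 samples of B16 cells, 2 in each of 4 groups, was read on 1-colour arrays. The authors deposited a scanner file per array, made with Agilent Feature Extraction 11.5.1.1 per the file headers; its processed signal is a linear intensity, background-subtracted, with surrogates for small values and no scaling between arrays. Their deposited table of intensity per gene name served as an alternative. The receptors, the gene lists and the naming rule were picked with earlier results of these data known. The rule names all 10 receptors with all probes, the 2 genes most alike per receptor read on all arrays, and up to 3 genes of a list per comparison.

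Of the 62976 spots per array, 1439 control spots were left out, and outlier-marked spots were set to missing. Repeated spots were averaged on the log2 scale, and counted as above background where at least 50% of them were. Group means of all 8 arrays were fitted with limma 3.58.1 in R 4.3.3 (empirical Bayes, 4 residual and 3.28 prior degrees of freedom), with two-sided tests. A value is log2 of the deposited signal minus the array's 75th percentile over 18687 probes. An "at least" fold compares group means, with each unmarked array set to the higher of its own signal and its lowest marked signal. The fit was tested on simulated data. The number of arrays, 2 per group, limits precision. Alternatives covered scaling, background, filter, outliers, trend, replicate number, 1 probe per gene name, the deposited table and each array left out. Figures used matplotlib 3.10.9 in Python 3.11.15.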

Additional observations from a re-analysis of the deposited data

How the results depend on the processing

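The differences recomputed under alternatives were 395, for the brightest tested probe of 5 receptors or the deposited table's value for the gene name. Of these, 340 kept their direction and side of the threshold, 54 changed sign and 1, Pdgfrb at 2 h of SEMA3E with normexp, newly passed (adjusted p = 0.0440 by limma). The third Insr probe, which is not among the 395, also passed there. Alternatives that changed only the filter, the probe set, the replicate block or the intensity trend return the same difference. They could not change a sign, so the count of 340 does not measure how stable the directions are. With 2 arrays a group, small differences have no settled direction, and dim probes near background can be read as marks only. Causes of the changes were not tested.

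In the order of 2 h of SEMA3E, 8 h of SEMA3E and cytochalasin D, each against control, cytochalasin D against SEMA3E at 8 h, and SEMA3E at 8 h against 2 h, the probes called were 0, 1, 0, 0 and 0. Scaled to each array's overall median they were 63, 3, 4, 9 and 61, and in the authors' deposited table they were 18, 14, 9, 12 and 21. With normexp they were 6048, 0, 0, 2 and 1. The 1 call at 8 h fell to 0 with quantile normalization, normexp with quantile normalization, no filter, the filter on all 8 arrays, the intensity trend and the replicate block, and 1 probe per gene name gave 1 call for cytochalasin D against SEMA3E at 8 h. With 1 array left out the calls ran from 0 to 355 at 2 h (355 without SEMA3E 2 h replicate 1), from 0 to 1 at 8 h, and from 0 to 398 for 8 h against 2 h (398 without SEMA3E 2 h replicate 1). Between groups, the differences of replicate 1 from replicate 2 had correlations of -0.18 to 0.14 over the tested probes. With 1 such difference per group, these cannot settle whether same-numbered samples shared a culture or batch. The replicate block gave 0 calls in all 5 comparisons.

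That scaling moved the median of all differences to -0.56, -1.01, -0.16, 0.80 and -0.43 in the same order. Signs turned there for Met at 2 h (-0.49) and against SEMA3E at 8 h (0.71), Igf1r at 2 h (-0.59), 8 h (-1.11) and 8 h against 2 h (-0.52), Insr for cytochalasin D against SEMA3E (0.58) and 8 h against 2 h (-0.11), Fgfr1 for 8 h against 2 h (-0.51) and Pdgfrb at 8 h (-1.13). With the percentile over all probes Igf1r at 8 h was -0.17 and against 2 h -0.21, Fgfr1 for 8 h against 2 h -0.21 and Pdgfrb at 8 h -0.19. With quantile normalization these were -0.055, -0.18, -0.22 and -0.77. With normexp and quantile normalization they were -0.17, -0.56, -0.34 and -0.025, Insr for 8 h against 2 h was -0.0025 and Met for cytochalasin D against SEMA3E 0.016. With normexp Igf1r was -0.065 at 8 h and -0.48 against 2 h, Insr 0.27 at 2 h, 0.068 for cytochalasin D against SEMA3E and -0.41 for 8 h against 2 h, Fgfr1 -0.49 for 8 h against 2 h, and Met 0.0027 for cytochalasin D against control and 0.044 against SEMA3E. In the deposited table, which holds 1 value per gene name and whose way of combining the 3 probes of Insr and of Fgfr1 is not stated, Igf1r was -0.084 at 2 h, Insr 0.13 at 8 h, and Fgfr1 0.70 at 2 h, 0.22 for cytochalasin D against control and -0.74 for 8 h against 2 h. With outlier spots kept, Igf1r at 2 h was -0.0057. Under normexp the median of all differences was 0.44, 0.14, 0.25, 0.11 and -0.35, in the order given for the calls. Relative to the median of all differences, Igf1r for cytochalasin D against control ran from 0.24 to 0.65 over the alternative scalings and background models. Fgfr1 for SEMA3E at 8 h against control ran from -0.84 to -0.72. Scaling by the percentile or by the median over all probes gives the same relative value by construction. Without a filter the difference is unchanged and the median is taken over 55460 probes, which gave 0.34 and -1.36.

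With 1 array left out, Met ran from -0.055 to 0.27 at 2 h, -0.43 to 0.29 at 8 h, -0.63 to 0.091 for cytochalasin D against SEMA3E and -0.54 to 0.18 for 8 h against 2 h. Igf1r ran from -0.065 to 0.068 at 2 h, -0.018 to 0.12 at 8 h and -0.019 to 0.12 for 8 h against 2 h, Insr from -0.39 to 0.24 at 8 h, and Fgfr1 from -0.26 to 0.37 for 8 h against 2 h. Pdgfrb ran from -1.07 to 1.13 at 8 h and from -0.91 to 1.29 for cytochalasin D against SEMA3E.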
